A study of Mus musculus with 2 samples.

Results

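Mir22 is the mouse gene of the microRNA miR-22, and it was examined here in the gastrocnemius, the large calf muscle. It was chosen by name, as the row whose Ensembl identifier, ENSMUSG00000065529.1, is Mir22 in the GENCODE M21 annotation, which makes it 1 of 2202 microRNA genes in the tables. The study is a microRNA-seq profile of that muscle from male B6CASTF1/J mice aged 36 days, the first-generation cross of the laboratory strain C57BL/6J with CAST, a strain of wild origin. It holds 2 libraries, replicates 2 and 1, whose labels describe different males from The Jackson Laboratory, although both carry the same donor identifier. No treatment, mutation or second tissue was set against them, so the comparisons are between Mir22 and the other genes and between the animals.

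MicroRNAs are cut from a folded hairpin, and the mature strand guides Argonaute to messenger RNAs through its seed, bases 2 to 8 counted from the 5′ end. miR-22 is known as a microRNA enriched in heart and skeletal muscle. In mice its loss blunts the hypertrophic response of the heart to stress, and in cultured muscle cells it is known to rise with differentiation. Reported targets include the deacetylases Hdac4 and Sirt1, the transcriptional regulator Purb, the fatty acid receptor Ppara and the DNA demethylase Tet2.

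The hairpin and its products are shown because the seed, and the absence of near copies, bear on what the counts of Mir22 hold. All sequences are from RefSeq on GRCm38.p6, the assembly also called mm10. The hairpin is chr11:75463716-75463810 on the plus strand, written with the 5p and 3p arms in capitals, and the mature forms are written with the seed in capitals. The mature forms of Mirlet7g, Mir126a and Mir206 are shown for comparison of the seeds, the first 2 as abundant genes near Mir22 and Mir206 as a defining microRNA of skeletal muscle.
Mir22 hairpin: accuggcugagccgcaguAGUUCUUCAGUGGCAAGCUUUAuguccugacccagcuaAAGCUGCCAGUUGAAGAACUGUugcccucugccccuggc
mmu-miR-22-3p: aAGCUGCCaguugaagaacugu
mmu-miR-22-5p: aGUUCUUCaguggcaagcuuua
mmu-let-7g-5p: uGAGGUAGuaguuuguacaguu
mmu-miR-126a-3p: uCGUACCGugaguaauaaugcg
mmu-miR-206-3p: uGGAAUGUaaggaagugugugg

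The mature forms of Mir22 lie at chr11:75463772-75463793 for the 3p arm, which is the form in the reports of its targets, and chr11:75463734-75463755 for the 5p arm. Of 1738 mature sequences listed, none outside Mir22 had the seed of miR-22-3p, even when only bases 2 to 7 were compared. None had the seed of miR-22-5p over bases 2 to 8, and 2 shared its bases 2 to 7, from Mir6935 and Mir7092. Mir6935 had 4 counts in replicate 2 and 0 in replicate 1, and Mir7092 had 1 and 0. Reads of the 5p and 3p arms were counted together as 1 gene, so the levels below do not say which arm they came from.

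Mir22 is encoded once among the annotated genes. The longest stretch its 95-base hairpin shared with any of the 2201 other hairpins, on either strand, was 13 bases, with Mir6998. By contrast 1087 of the 2202 genes shared at least 20 bases with a hairpin elsewhere. In the GENCODE M21 transcripts, both mature forms occurred in Mir22, in 2 transcripts of Mir22hg and in 1 transcript of Tlcd2, all of which overlap at this locus, and in no other gene. The whole genome was not searched.

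The gene lies within exon 2 of its noncoding host Mir22hg, which spans 75461539 to 75466676 on the plus strand of chromosome 11. The exon runs from 75463693 to 75463857 in one annotated transcript and to 75464029 in another. The same exon interval is exon 2 of Tlcd2-203, a transcript without an annotated coding sequence of the protein-coding gene Tlcd2, which spans 75461715 to 75470899. Folded with RNAfold, the hairpin formed 36 base pairs, 19 of them between the 5p and 3p arms. Its folding energy was −41.9 kcal/mol, or −0.441 per base. Of the 2202 hairpins folded, 24.8% had a lower energy per base, and their median was −0.369, so this measure placed Mir22 among the more stable hairpins without setting it apart.

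Matches to the miR-22-3p seed were looked up in the 3′ untranslated regions of 5 of its reported targets. The regions are the longest annotated per gene in GENCODE M21. The letters searched were GGCAGCT, the complement of bases 2 to 8, on the mRNA strand alone, and GGCAGCTA, the same with the A that makes the longest canonical seed match. Each window below shows up to 15 bases before the match, the match in capitals and 1 base after it.
Sirt1: ttttccaaaacttgtGGCAGCTa
Hdac4: ttgcacgccaaactcGGCAGCTt
Purb, first match: agcaGGCAGCTt
Purb, second match: tattttgtactacaaGGCAGCTg
Ppara: ctaggcccctcctttGGCAGCTc
Tet2: aaccgaaagagaataGGCAGCTg

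All 5 regions held GGCAGCT, once each except Purb, which held it at 2 positions, and that of Sirt1 held the longer GGCAGCTA. Of 21027 genes with an annotated 3′ untranslated region, 12.8% held GGCAGCT and 2.0% held GGCAGCTA. Since long regions hold more matches by length alone, each target was set beside regions within 20% of its own length. GGCAGCT was present in 16.3% of the 2892 regions near the 1631 bases of Sirt1. The corresponding shares were 31.2% for Hdac4, 45.01% for Purb, 15.7% for Ppara and 24.6% for Tet2. GGCAGCTA was present in 2.3% of the regions of the length of Sirt1. These genes were picked because they are reported targets, so the matches describe them and test nothing, and no messenger RNA was measured in this series.

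The same-strand counts over all microRNA genes came to 3219740 reads in replicate 2 and 4134880 in replicate 1. All 8 microRNAs fixed as markers of skeletal muscle had reads in both libraries, led by Mir206 at 27262 ± 2019 CPM (SD, n = 2), and together they held 2.80% ± 0.208 of counted reads. Of these 8, 5 share at least 20 bases with another hairpin, the Mir1 and Mir133 loci, so their share can be too low. CPM is a count per 1000000 counted reads of the library, and it is not divided by length, because each read stands for a mature RNA of similar size. No such stretch with a hairpin elsewhere was found in the endothelial pair Mir126a and Mir126b, which held 9.06% ± 0.737, or in the smooth muscle and pericyte pair Mir143 and Mir145a, which held 8.95% ± 0.590. Leukocyte, red cell and liver markers held 0.238%, 0.0399% and 0.00126%. Of the 9 neuron and glia markers, the 6 loci of Mir124a and Mir9 had no counted read in either library. Each has a stretch of 20 or more bases found again in a hairpin elsewhere, so reads of these loci may have gone uncounted. Their counts of 0 therefore do not show that Mir124a and Mir9 were absent. The list of 9 held 0.124% in replicate 2 and 0.430% in replicate 1, nearly all as Mir338. Such a stretch occurs in 8 of the 9, so these shares can be too low. In bulk muscle, fewer cells of a type and less RNA per cell cannot be told apart.

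Among reads counted for a gene, which appear to leave out those aligned to several loci, Mir22 ranked 2 among the microRNA genes in both libraries. Replicate 2 gave it 415939 counts, and replicate 1 gave it 454583. These are 129184 and 109939 CPM, or 119561 ± 13609 CPM (SD, n = 2). Mir22 alone took 12.9% of counted reads in replicate 2, with an exact Clopper-Pearson 95% interval of 12.88 to 12.96. In replicate 1 it took 10.99%, with an interval of 10.96 to 11.02. These intervals cover counting error within 1 library only. They can be too narrow even for that, because PCR copies are not independent molecules. The spread between the 2 libraries was far wider than either interval. Among genes with any read, the median was 22 counts in replicate 2 and 18 in replicate 1.

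No read was counted on the strand opposite to Mir22 in either library. A count of 0 allows up to 0.000721% of its reads on that strand in replicate 2 and 0.000660% in replicate 1. The counts that ignore strand were therefore identical to those on its strand, and no annotated microRNA overlaps it. As a share of all reads, including those that were unmapped or aligned to several loci, Mir22 held 2.48% in replicate 2 and 2.30% in replicate 1, or 2.39% ± 0.125. Reads aligned to several loci made up 73.3% of replicate 2 and 70.4% of replicate 1. By the layout of the tables such reads appear to be added to no gene, so microRNAs encoded at several loci, such as Mir1a, cannot be ranked against Mir22. A count equal to that of Mir22 would need 3.39% of those reads in replicate 2 and 3.28% in replicate 1.

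The order of levels around Mir22 was the same in both animals. Mir378a, carried by Ppargc1b, a coactivator of mitochondrial metabolism, stood above it, with 137483 CPM in replicate 2 and 123286 in replicate 1. Mir22 was lower than Mir378a by 0.09 on the log2 scale in replicate 2 and by 0.17 in replicate 1, and the mean log2 ratio of Mir22 over Mir378a was −0.13 ± 0.05 (SD, n = 2). The 2 genes' CPM ranges overlapped, since Mir22 in replicate 2 exceeded Mir378a in replicate 1. Their order held within each library, but 2 libraries cannot give a two-sided exact sign-flip p below 0.5.

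Below it, Mir126a, carried by the endothelial gene Egfl7, had 95833 CPM in replicate 2 and 85413 in replicate 1. Mir143, typical of smooth muscle, had 91040 and 82893 CPM. Mir22 exceeded Mir126a 1.32-fold (log2 ratio 0.40 ± 0.05) and Mir143 1.37-fold (0.46 ± 0.07), and its lowest library was above the highest library of both. By counted reads, 2200 of the 2201 other genes had their highest library below the lowest library of Mir22, and Mir378a was the exception. The 2201 include the 1087 genes that share at least 20 bases with another hairpin. Counts of those genes can be too low, so this does not rank them against Mir22.

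**Figure D1:**
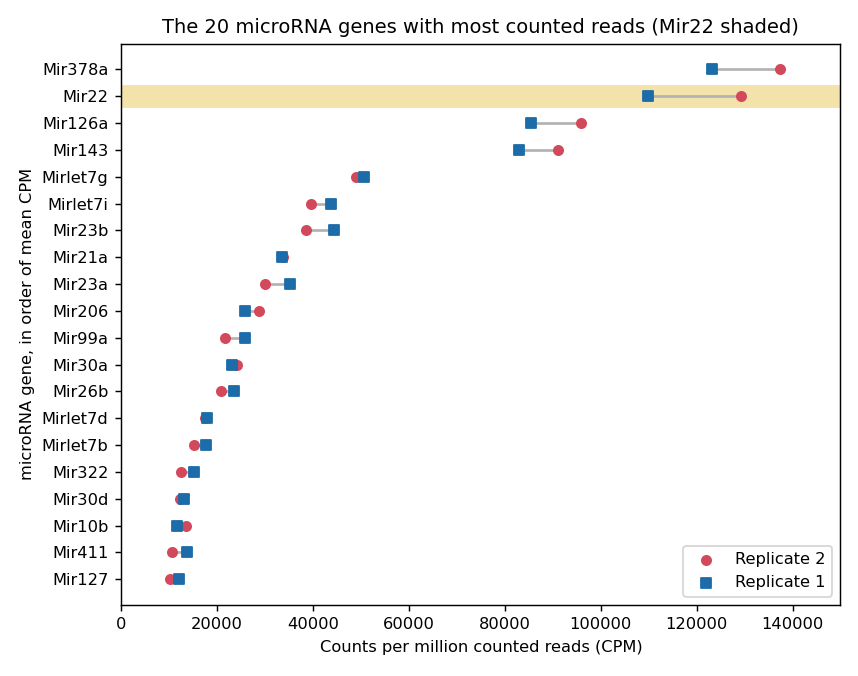
CPM (horizontal axis, linear from 0) of the 20 genes with the highest mean, with a circle for replicate 2 and a square for replicate 1. Mir22, shaded, lies at 129184 and 109939 CPM, between Mir378a and Mir126a in both libraries, and the 4 leading genes stand well to the right of Mirlet7g.

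The next step down was wide. Mirlet7g, the let-7 gene with the most counted reads, had 49724 ± 1188 CPM (SD, n = 2), and Mir22 exceeded it 2.40-fold (log2 ratio 1.26 ± 0.20). Mir22 exceeded Mirlet7i 2.87-fold, Mir23b 2.88-fold, Mir21a 3.55-fold and Mir23a 3.67-fold. Over Mir206, the microRNA best known for skeletal muscle, it stood 4.38-fold higher, with a log2 ratio of 2.17 in replicate 2 and 2.09 in replicate 1. Over the last of the leading 20, Mir127, it stood 10.7-fold higher. The 4 leading genes together held 42.8% of counted reads, and Mir22 made up 28.0% of that.

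**Figure D2:**
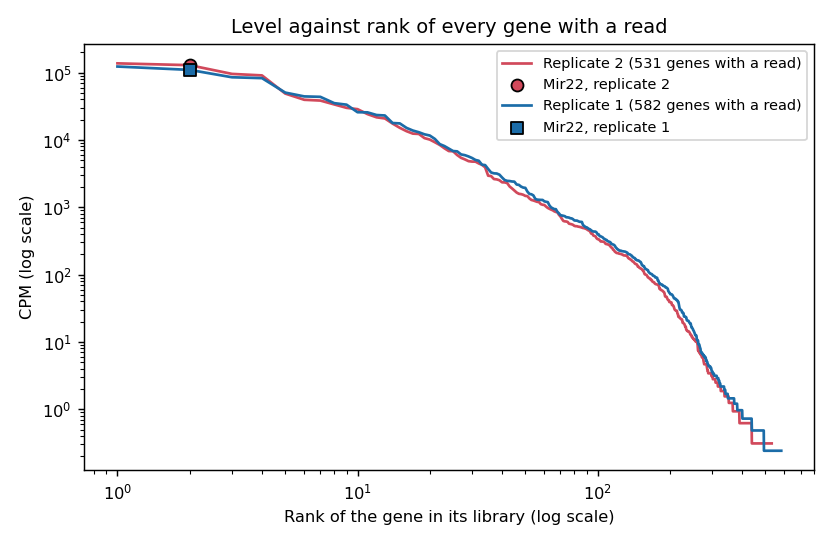
CPM (vertical axis, log scale) against rank within the library (horizontal axis, log scale) for each gene with a read, with replicate 2 in red and replicate 1 in blue. Mir22, at rank 2 in both libraries, sits on the flat head of the curve formed by the 4 leading genes, ahead of the drop to rank 5.

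Because many abundant microRNAs have copies or overlap another gene, Mir22 was also ranked among the genes in which neither was found. Those 1069 genes share no stretch of 20 bases with another hairpin and overlap no annotated microRNA. Inexact copies, and copies outside the annotated hairpins, were not looked for in this set. Mir22 ranked 1 among them by mean CPM, 1.37-fold above the next, Mir143, and held 19.0% of their summed CPM. Mir378a is outside this set on both counts, and Mir126a overlaps Mir126b on the opposite strand. When strand was ignored, reads of overlapping genes were set aside as ambiguous, and Mir378a had 0 counts in both libraries. Mir22 then ranked 1 in both, with 17.4% of counted reads in replicate 2 and 14.4% in replicate 1. This rank and these larger shares follow from the reads set aside, since the counts of Mir22 did not change.

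Levels were then summed over genes that share a seed. The whole count of a gene, both arms together, was given to each of its seeds. The sums are therefore not levels of the mature forms that bear the seed. Of the gene symbols in the tables, 1022 matched an entry in the RefSeq list of mature sequences, and these held 75.9% of counted reads. Mir378a, Mir143 and Mir30d were not matched among the leading 20. Of the 1357 seeds compared, 1 had a higher mean than Mir22, the let-7 seed GAGGUAG, summed over 13 genes. Mir378a, with a mean of 130385 CPM, was alone above Mir22 but, being unmatched, had no seed in this comparison. The group summed for GGAAUGU, the seed of miR-206-3p, held no Mir1 locus. The let-7 sum was 131561 CPM in replicate 2 and 141076 in replicate 1. Mir22 alone lay 1.02-fold below this sum in replicate 2 and 1.28-fold below it in replicate 1. The log2 ratio of Mir22 over let-7 was −0.19 ± 0.24, which is smaller than the spread between the libraries. Of the 13 genes with the let-7 seed, 5 have 20 or more bases in common with a hairpin elsewhere. Reads of theirs that aligned to several loci are missing from the let-7 sum.

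Mir22 was compared with 2 lists of related microRNAs. The muscle and heart list held Mir206, the Mir1 and Mir133 loci, the myosin-intron microRNAs Mir208a, Mir208b and Mir499, and Mir486 with Mir3107. All 12 had reads in both libraries. Of the 12, 6 share at least 20 bases with another hairpin, all of them Mir1 and Mir133 loci, and cannot be ranked against Mir22. The counts of the other 6 were below that of Mir22. Among these, Mir486 and Mir3107 overlap on opposite strands. Overlapping hairpins were not compared with each other, so the counts of this pair may be too low as well. The counted sum of the 12 was 30470 CPM in replicate 2 and 27446 in replicate 1 (28958 ± 2138), and the count of Mir22 exceeded that sum 4.13-fold, a ratio that reads left uncounted at the shared loci would lower. Mir206 made up most of it, and the median member had 34.8 CPM, against 0 for all 2202 genes and 199.96 for the 261 genes with at least 10 CPM. Mir499, in an intron of Myh7b, had 266 ± 27.4 CPM and lay 449-fold below Mir22. Mir1a-2, a shared locus, had 331 ± 22.8 CPM.

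The second list held 17 other microRNAs reported in cardiac hypertrophy. Their counted sum was 83307 CPM in replicate 2 and 90076 in replicate 1, and the count of Mir22 exceeded it 1.38-fold. Mir21a, known from growth and injury responses, and Mir23a led it, with Mir21a at 33772 CPM in replicate 2 and 33449 in replicate 1 and Mir23a at 32620 ± 3687 CPM. Mir27b, a neighbour of Mir23b, had 9804 ± 784 CPM, and Mir195a, of the miR-15 family, had 6374 ± 566 CPM. Mir29a, known to repress collagen genes, had 2548 ± 112 CPM. Of the 17, 10 share at least 20 bases with another hairpin, Mir23a and Mir27b among them, and the sum over the other 7 was 42854 CPM. Reads left uncounted at the 10 would lower the 1.38-fold ratio by an unknown amount.

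**Figure D3:**
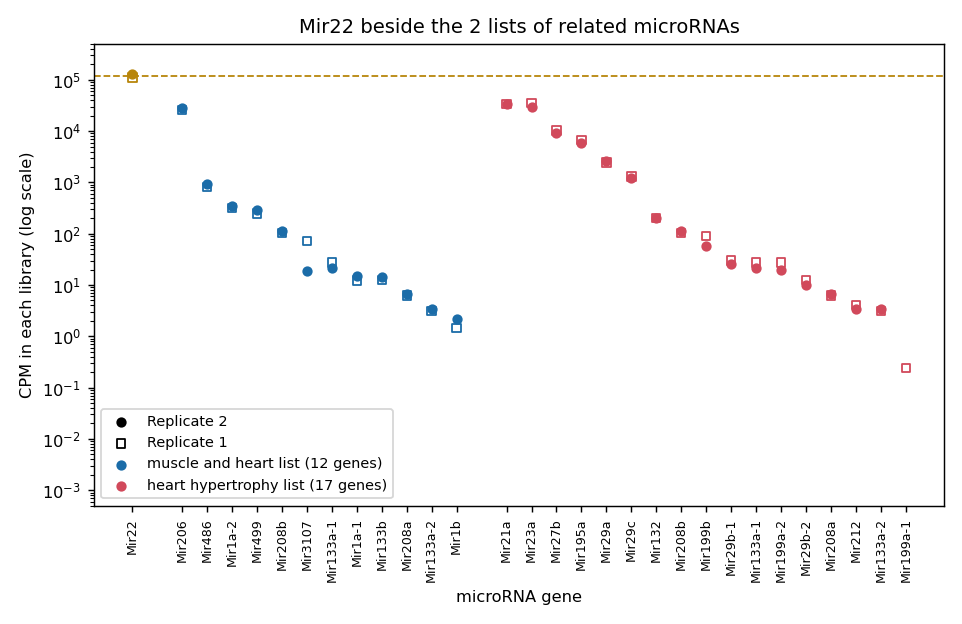
CPM (vertical axis, log scale) of Mir22 and of the members of the 2 lists, with a filled circle for replicate 2 and an open square for replicate 1; the dashed line marks the mean of Mir22, and the count of 0 of Mir199a-1 in replicate 2 is not drawn. No counted level of a listed gene reaches Mir22, and Mir21a, Mir23a and Mir206 come nearest.

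Around the locus, 5 other annotated microRNA genes lie within 1 Mb of Mir22 on chromosome 11. The nearest, Mir3971, at 87.6 kb, had no read, and neither did Gm47300 or Mir6926. Mir132 and Mir212, a pair known from neurons and from the hypertrophic heart, lie about 290 kb away on the same strand. Mir132 had 652 counts in replicate 2 and 835 in replicate 1, a level of 202 ± 0.396 CPM, which is 591-fold below Mir22. Mir212 had 11 and 17 counts. The high level of Mir22 was thus not shared by its neighbours on the chromosome.

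By position, Mir22 belongs to the 281 microRNA genes that lie wholly within an exon of any annotated host transcript on their strand. The transcript may be of any type, and other transcripts of the same host may carry the gene in an intron. The 281 genes held 37.9% of counted reads in replicate 2 and 36.2% in replicate 1. Mir22 led them, with 32.3% of their summed mean CPM. Mir126a in Egfl7, Mirlet7i in D630033A02Rik and Mir21a in Vmp1 came next. Of the 281, 53 had a mean of at least 10 CPM, with a median of 239 CPM. The 898 genes inside a host but not wholly within an exon held 39.98% of counted reads, and the 1023 without a host held 23.0%.

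The animals were compared last. Each gave 1 library, so differences between animals and between library preparations cannot be told apart. Libraries were scaled by TMM, which sets the bulk of genes to no change, and ratios are replicate 2 over replicate 1 of CPM + 1. Mir22 was higher in replicate 2, with 138862 TMM-scaled CPM against 102277 in replicate 1, a log2 ratio of 0.44 or 1.36-fold. Replicate 2 supplied 47.8% of all Mir22 reads (exact Clopper-Pearson 95% interval 47.7 to 47.9) and 43.8% of all counted reads. This interval covers counting error only. With 1 library on either side the difference has no replicate check and no p-value.

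Among the 20 genes above 10000 CPM, none had a larger ratio in either direction. Among the 63 genes above 1000 CPM, 11 (17.5%) passed 1.2-fold in the direction of replicate 2. Of these 63 genes, 1 was higher in ratio, Mir149 at 0.48, and Mir338 had a larger ratio in the other direction, at −1.58. Of the 261 genes above 10 CPM, 14 were higher in ratio and 40 had a larger absolute ratio, and the median absolute log2 ratio was 0.18. Mir22 passed 1.2-fold in the direction of replicate 2, as did 45 of the 261 genes (17.2%). Such a difference is not rare among all genes, and it was near the top of the range among the abundant ones.

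The size of this difference depended on the scaling. Scaled to total counts, the log2 ratio of Mir22 was 0.23, and scaled to all reads of the library it was 0.11. Total-count scaling moved the median ratio of the 261 genes to −0.21, against −0.01 under TMM. Mir22 was higher in replicate 2 under each of the scalings tried, whereas the number of the 261 genes higher in replicate 2 was 127 under TMM and 53 under total-count scaling. Under total-count scaling 11 of the 261 genes (4.21%) passed 1.2-fold in that direction, and Mir22, at 1.18-fold, did not pass it.

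**Figure D4:**
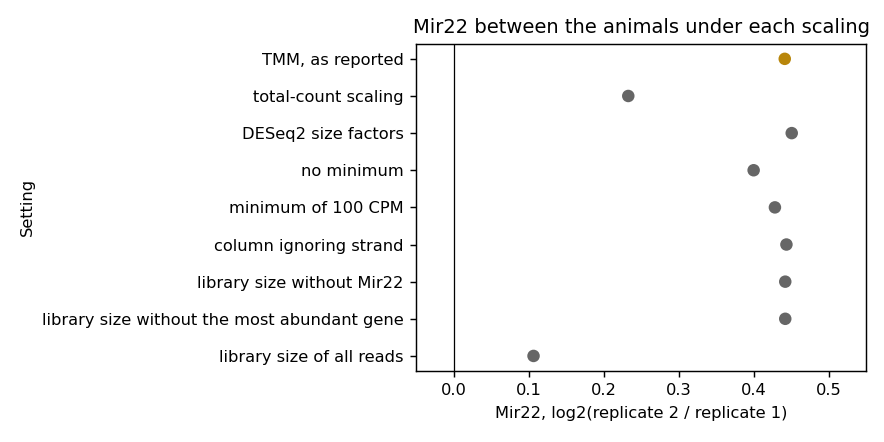
The log2 ratio of Mir22, replicate 2 over replicate 1 (horizontal axis), under TMM and under each other scaling, minimum or column tried (vertical axis). All values are above 0, from 0.11 with all reads as the library size to 0.45 with DESeq2 size factors.

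The 5 genes of at least 1000 CPM whose ratio lay nearest to that of Mir22 were Mir10b (0.42), Mir149 (0.48), Mir126a (0.37), Mir196a-2 (0.37) and Mir378a (0.37). Likeness here is the gap between log2 ratios over 2 libraries, which ran from 0.02 for Mir10b to 0.08 for Mir378a. Mir10b and Mir196a-2 lie inside Hox gene clusters, and Mir149 lies within Gpc1. Mir143, at 0.34, and Mir206, at 0.36, were also higher in replicate 2. The other 3 of the leading 4 genes were thus all higher in replicate 2, like Mir22.

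Markers of several cell types were higher in replicate 2 as well. Of the 7 skeletal muscle markers with at least 10 CPM, 6 were higher in replicate 2 under TMM and under total-count scaling, beside 127 and 53 of all 261 genes. Their median log2 ratio under TMM was 0.37, against −0.01 for the 261 genes. That median is the ratio of Mir133b, which had 46 raw counts in replicate 2 and 52 in replicate 1. The marker that was lower, Mir133a-1, had 70 and 113. Of the 7, Mir1a-2, Mir1a-1, Mir133a-1 and Mir133b are shared loci, whose counts can be too low. Both smooth muscle markers were higher under both scalings, with a median of 0.33. Of 5 leukocyte markers, 4 were higher under TMM, with a median of 0.32, and 3 under total-count scaling. Both red cell markers were higher under TMM, with a median of 0.12, and neither was under total-count scaling. In CPM, the whole skeletal muscle list summed to 29492 in replicate 2 and 26554 in replicate 1, the endothelial list to 95833 and 85414, and the smooth muscle list to 93638 and 85297. The neuron and glia list went the other way, with 1244 and 4297 CPM, and so did the liver marker Mir122, with 15 and 85 counts. The leukocyte list had 2425 CPM in replicate 2 and 2326 in replicate 1, and the red cell list had 394 and 405. The part of these markers in the difference of Mir22 was not tested. Set against the counted muscle markers within each library, with the limit on their shared loci, Mir22 exceeded their sum by 2.13 on the log2 scale in replicate 2 and by 2.05 in replicate 1.

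**Figure D5:**
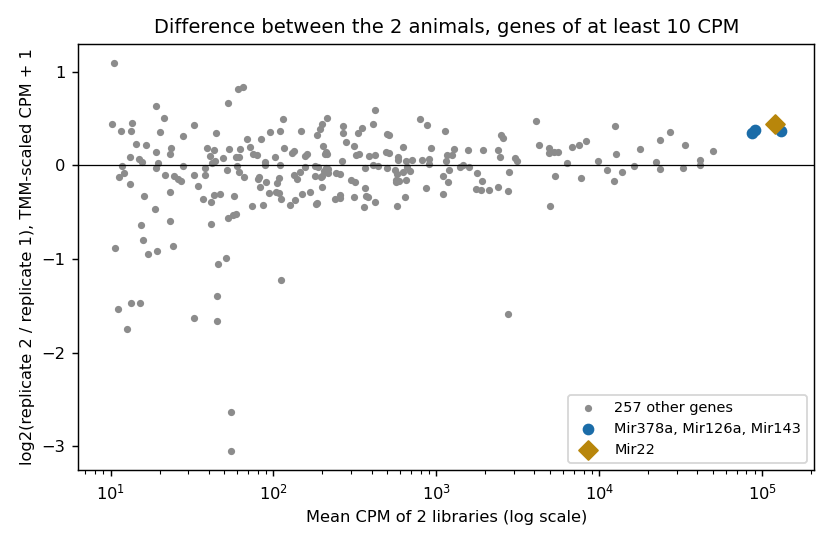
Log2 ratio of replicate 2 over replicate 1 (vertical axis, TMM-scaled CPM + 1) against mean CPM (horizontal axis, log scale) for the 261 genes of at least 10 CPM. Mir22, the diamond at 0.44, lies above 0 with Mir378a, Mir126a and Mir143 at the abundant end, where most ratios are small.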

How the data were processed

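MicroRNA-seq libraries of 2 gastrocnemius samples were analysed as 1 group. The authors deposited whole-number read counts per microRNA gene, 1 table per library. They were made on mm10 with GENCODE M21, per the file headers in the deposited descriptions; no aligner, counter or trimming step is named there. Counts on the gene's strand were the main column. The 4 rows that name no gene (unmapped, several loci, outside genes, ambiguous) stayed out of library sizes; counted reads were 19.2% of the total in replicate 2, against 20.96% for replicate 1. Reads from CAST alleles that differ from mm10 may be lost, which was not analysed here.

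CPM, ranks and exact Clopper-Pearson 95% intervals were computed in Python 3.11.15 with scipy 1.17.1. A count of 0 was taken to allow 3 counts. Ratios between genes used counts + 0.5. TMM factors (edgeR 4.0.16, 0.930 for replicate 2 and 1.07 for replicate 1) used genes of at least 10 mean CPM; the ratio step was tested on simulated data. Hairpins came from GENCODE M21 transcripts and were folded with RNAfold 2.7.2. The libraries' counts over 362 genes differed beyond sampling noise (chi-square over its degrees of freedom 111.5), so they are not 1 library deposited in duplicate. Names followed a fixed rule (the 10 highest genes, list members, neighbours within 1 Mb, genes sharing a seed, the 5 nearest ratios); Mir6998, Mir127, Mir30d and Mir338, the last also a marker, were added after their values were seen, as were the 5 targets and the seed sums. Another planned list is not reported here. The gene, lists and tests were chosen with earlier results of these data known. With 1 group and 2 animals no test between conditions was possible. Alternatives are given below.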

Additional observations from a re-analysis of the deposited data

How the results depend on the processing

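The level of Mir22 was 119561 CPM as reported, 159387 in the column ignoring strand, 135933 without Mir22 in the library size, 137587 without the most abundant gene and 23928 CPM of all reads; the last 3 follow from the denominators alone. Leaving out a replicate gave 109939 to 129184, and thinning both libraries to the smaller total gave 119556, at rank 2 each time; the column ignoring strand gave rank 1. The log2 ratio of replicate 2 over replicate 1 was 0.44, and 0.23 under total counts, 0.45 under DESeq2 size factors, 0.40 without a minimum, 0.43 at a minimum of 100 CPM and 0.11 with all reads. It moved by less than its counting interval under the other settings tried (pseudocounts of 0.5 and 5 CPM, the column ignoring strand, and library sizes without Mir22 or the most abundant gene). In the column ignoring strand the log2 ratio over Mir378a reversed to 19.73 and that over Mir126a moved to 17.35. Mir378a then has 0 counts, and Mir126a has 1 in replicate 2 and 4 in replicate 1, as their reads are set aside as ambiguous; these values depend on the pseudocount and are no bounds. The ratio over Mir143 kept its direction in each setting tried. In that column the list sums moved to 36912 (muscle and heart) and 115385 CPM (hypertrophy). Without members that share 20 bases, the hypertrophy sum moved to 42854. No paired analysis was possible because there is 1 group. Depth does not limit the values of Mir22, but genes under 10 counts are uncertain, and 2 animals limit every comparison.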
